A study of Rattus norvegicus with 16 samples.

Results

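The Toll-like receptors of rat blood were examined together with the co-receptor Cd14 and the adaptor Myd88, as 10 genes named by symbol (Tlr1, Tlr2, Tlr3, Tlr4, Tlr5, Tlr6, Tlr7, Tlr9, Cd14 and Myd88). Of these, 9 had a row in the count tables of all 16 libraries, each with a single entry, among 18031 genes listed for every library. Tlr1 had no row under that symbol and was not analysed here. Tlr8 and Tlr10, which the choice of genes did not include, were read as neighbours of the receptors that it did. The libraries were whole blood of 16 male Sprague-Dawley rats aged 85 to 90 days, all labelled Saline Control and numbered 1 to 16, with 1 library per rat. Each rat had 4 injections of 1 ml/kg saline at 2 h intervals, had no food or water meanwhile, and was bled from the heart under pentobarbital 3 h after the last injection. The study used the saline group as the reference for amphetamine, but no treated rat was analysed here, so what could be asked was how much these transcripts varied among control animals and which of them varied together.

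Toll-like receptors recognise conserved microbial molecules. Tlr2 pairs with Tlr1 or Tlr6 at the cell surface to bind bacterial lipopeptides, Tlr4 binds lipopolysaccharide with its partner Ly96 (MD-2) after Lbp and Cd14 have delivered it, and Tlr5 binds flagellin. Tlr3, Tlr7 and Tlr9 sit in endosomes, where they sense double-stranded RNA, single-stranded RNA and unmethylated CpG DNA. All of them except Tlr3 signal through Myd88 and the Irak kinases to NF-kB and interferon regulatory factors, while Tlr3 uses Ticam1. In blood, neutrophils and monocytes are the known carriers of the surface receptors and of Cd14, and Tlr9 is known from B cells and plasmacytoid dendritic cells. In bulk blood, fewer cells of a type and less RNA per cell cannot be told apart.

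The promoters of Tlr2 and of the 4 members whose transcripts moved with it are shown to let their starts be compared. RefSeq (build GRCr8) gave a window from 250 bases before to 50 bases after the start for all 10 genes, and 3 short motifs were searched on both strands. These were GAGGAA, the core bound by the myeloid factor PU.1, GAAANNGAA, a repeat that interferon regulatory factors bind, and GGNNTTTCC, a form of the NF-kB site. Capitals mark matches, which on the printed strand may read as the reverse complement.

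Tlr2, chr2:171504508-171504807, minus strand: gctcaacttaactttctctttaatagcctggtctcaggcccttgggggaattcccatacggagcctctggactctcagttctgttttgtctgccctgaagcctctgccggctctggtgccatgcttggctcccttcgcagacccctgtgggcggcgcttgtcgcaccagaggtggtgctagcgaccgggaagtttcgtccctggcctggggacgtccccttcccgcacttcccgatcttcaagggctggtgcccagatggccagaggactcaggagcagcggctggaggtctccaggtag

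Tlr6, chr14:43715559-43715858, plus strand: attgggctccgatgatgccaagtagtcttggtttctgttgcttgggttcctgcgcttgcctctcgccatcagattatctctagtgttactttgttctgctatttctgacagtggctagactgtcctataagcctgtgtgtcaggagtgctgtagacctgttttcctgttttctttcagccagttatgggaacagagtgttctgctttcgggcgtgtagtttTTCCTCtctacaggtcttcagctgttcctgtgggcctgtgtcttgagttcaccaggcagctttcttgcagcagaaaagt

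Tlr4, chr5:85160997-85161296, plus strand: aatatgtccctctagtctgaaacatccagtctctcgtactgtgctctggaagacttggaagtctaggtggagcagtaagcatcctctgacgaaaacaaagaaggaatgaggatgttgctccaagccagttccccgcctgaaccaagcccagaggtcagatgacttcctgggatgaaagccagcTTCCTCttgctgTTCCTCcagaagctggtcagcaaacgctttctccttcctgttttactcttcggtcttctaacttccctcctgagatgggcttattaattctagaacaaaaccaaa

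Cd14, chr18:28611109-28611408, minus strand: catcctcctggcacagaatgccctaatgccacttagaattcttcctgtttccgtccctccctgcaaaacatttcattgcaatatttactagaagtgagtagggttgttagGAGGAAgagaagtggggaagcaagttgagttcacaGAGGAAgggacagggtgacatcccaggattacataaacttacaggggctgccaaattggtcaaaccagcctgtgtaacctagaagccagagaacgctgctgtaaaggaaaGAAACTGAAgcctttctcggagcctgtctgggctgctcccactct

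Myd88, chr8:127956181-127956480, minus strand: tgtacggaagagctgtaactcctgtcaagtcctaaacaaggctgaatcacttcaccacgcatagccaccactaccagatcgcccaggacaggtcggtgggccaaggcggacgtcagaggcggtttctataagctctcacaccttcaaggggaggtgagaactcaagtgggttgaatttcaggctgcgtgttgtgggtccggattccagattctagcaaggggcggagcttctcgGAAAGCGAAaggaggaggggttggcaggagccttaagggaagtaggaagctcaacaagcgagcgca

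The PU.1 core stood 2 times in the Tlr4 window, 2 times in that of Cd14, 1 time in that of Tlr6 and not in those of Tlr2 and Myd88. Over 33365 promoters of this length, 27.6% held it. Outside those printed, it stood 2 times in the window of Tlr9, 1 time each in those of Tlr3 and Tlr7, and in neither of those of Tlr1 and Tlr5. The interferon type of match, held by 9.71% of promoters, was in the windows of Cd14 and Myd88 (capitals GAAACTGAA for Cd14), and the NF-kB type, held by 6.05%, was in that of Tlr7. A match of this kind is a description of the letters and not a bound site. Other forms of the NF-kB site were not searched, so a window without a match, such as that of Tlr2, may still hold one.

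Totals ran from 21466776 to 31189549 counts per library, so that 3 counts, taken as the lowest detectable signal, were 0.0962 to 0.14 CPM (counts scaled to the library total). These limits cover counting error only. The files carried 6 codes in their names, lettered here A to F (A for controls 1 to 3, B for controls 4, 5, 7, 8 and 10, C for 6 and 9, D for 11 to 14, E for 15 and F for 16), and the sources used here do not say what a code stands for. The study drew its control rats from repeats of the experiment run at different times. It gave 3, 7 and 6 control rats for the first 3 repeats. Controls 1 to 3 carried code A, controls 4 to 10 code B or C, and controls 11 to 16 code D, E or F, which matches those sizes. Codes D, E and F also listed the same number of genes (18677). The labels do not say which rat belonged to which repeat, so code, repeat and date of sacrifice cannot be told apart here. Some libraries held transcripts of other tissues. Of 7 liver markers, Tf was at 3218 normalized counts or more in every library, and the other 6, set apart after their values were seen, summed to 428160 in control 2, 19049 in control 8, 4299 in control 7, 2146 in control 5 and at most 112 in the other 12. Among the other lists, control 12 had the highest sums of fat and early lymphoid markers (4863 and 5770), and control 10 that of heart muscle markers (462). Markers of T cells, B cells, neutrophils, monocytes, platelets and red cell precursors were above 0 in every library, apart from Mpo and Cd163, each at 0 in 3 libraries, and from Cd79a and Ccr2, which had no row. Results are also given without controls 2, 8 and 12 where that changes them. Levels below are DESeq2 normalized counts. They are not per transcript length, so they were compared between libraries and not between genes.

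Tlr2 had the largest coefficient of variation of the 4 surface receptors among the members. Its level was 808 in control 6, had a median of 2950 and reached 9422 in control 8, an 11.7-fold range (mean 4178 ± 3089, SD, n = 16). Controls 7, 8, 9 and 15 lay at 7547, 9422, 8623 and 8365, while controls 2, 3, 4 and 6 lay at 858, 1120, 971 and 808. Tlr6, its partner, ran from 610 in control 6 through a median of 1740 to 4350 in control 7 (2093 ± 1285, SD, n = 16), and its 4 lowest controls were the same 4 as for Tlr2. The ratio of Tlr2 to Tlr6 within a library was steadier than either gene, from 1.13 in control 2 to 2.33, apart from 3.36 in control 15.

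Tlr4, the lipopolysaccharide receptor, had its lowest level in control 4 at 110, a median of 259.6 and its highest in control 9 at 807 (345.8 ± 208, SD, n = 16). Controls 7, 8 and 9 were high for it as they were for Tlr2, but control 15, among the 4 highest for Tlr2, had a Tlr4 level of only 229. Tlr5, the flagellin receptor, followed another order. It was lowest in control 10 at 71.6, had a median of 235 and was highest in control 8 at 631, with control 15 next at 613 (285.5 ± 169.99, SD, n = 16).

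Cd14, which hands lipopolysaccharide to Tlr4, ran from 69.1 in control 4 through a median of 259.9 to 978 in control 15, a 14.2-fold range (312 ± 236, SD, n = 16). Without control 15 the mean was 268. The ratio of Cd14 to Tlr4 lay between 0.356 in control 9 and 1.28 in 15 libraries and was 4.26 in control 15, which was the only library of code E. Myd88, the shared adaptor, was 1520 (control 6) at its lowest, 4115 at the median and 7877 (control 8) at its highest (4213 ± 2247, SD, n = 16).

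**Figure D1:**
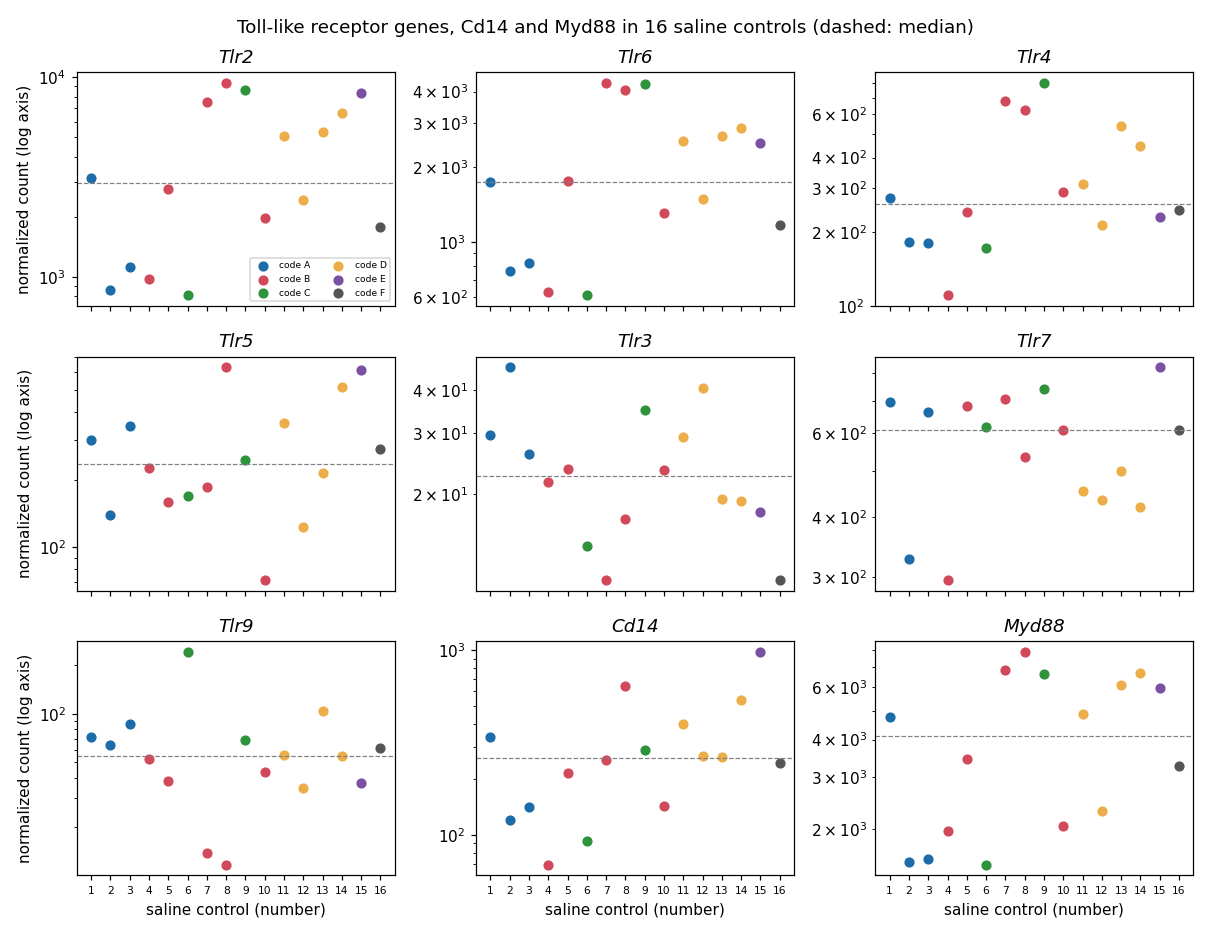
Normalized counts (log axis) of 9 genes in each of the 16 saline controls (x axis), coloured by library code, with the median dashed. Tlr2, Tlr6 and Myd88 are high in controls 7, 8 and 9 and low in controls 2, 3, 4 and 6. Tlr9 is lowest in controls 7 and 8 and highest in control 6, but above its median in control 9, at 69.

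Of the endosomal members, Tlr7 was the one with a positive Pearson r with Tlr2 (0.389 over 16 controls, not tested). Controls 4 and 2, low for Tlr2, were the lowest 2 for Tlr7, and controls 15, 9 and 7, high for Tlr2, the highest 3, but over a narrower range. Other controls went against this. Control 8, highest for Tlr2, was at 534 and control 14 at 420, both below the Tlr7 median, and control 6, lowest for Tlr2, was above it at 618. The slope of Tlr7 on Tlr2, given below, was not called. Tlr7 was the steadiest of the members, at 296 in control 4, 608 at the median and 821 in control 15, a 2.78-fold range (569 ± 152, SD, n = 16). Tlr9 lay between 11.7 in control 8 and 104 in 15 libraries, with a median of 55.2 over all 16, and stood at 241 in control 6 (65.1 ± 52.8, SD, n = 16). Leaving control 6 out lowered its coefficient of variation from 81.1% to 46.8%. Tlr3 was near the level where counting error weighs, with 9 to 55 raw counts per library and normalized levels of 11.2 in control 7, 22.5 at the median and 46.5 in control 2 (24.1 ± 10.1, SD, n = 16). Counting alone would give Tlr3 a coefficient of variation of 19.7%, against 42% observed, and it would give Tlr9 11.9%.

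Tlr8, the X-linked neighbour of Tlr7 and also an RNA sensor, ran from 213 in control 8 to 982 in control 10. The Tlr7 to Tlr8 ratio ran from 0.618 in control 10 to 2.51 in control 8. Tlr10 was low, at 6.18 to 88.2 normalized counts. Tlr11 and Tlr12 had at most 16 and 10 raw counts in any library. In RefSeq's gene order Tlr1 lies between Tlr6 and Tlr10 on chromosome 14, and whether reads of Tlr1 were counted under either neighbour was not tested.

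Against the rest of the transcriptome the surface receptors were variable genes. Among 8672 genes with a mean of at least 100 normalized counts the median coefficient of variation was 24.8%. It was 73.9% for Tlr2, 75.4% for Cd14, 61.4% for Tlr6, 60% for Tlr4, 59.5% for Tlr5 and 53.3% for Myd88. Between 89.68% and 95.15% of those genes varied less than these 6, and 56.05% varied less than Tlr7, whose coefficient was 26.7%. These shares are a description without a test.

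No difference between library codes was detected among the members. In a fit of the 12 libraries with codes A, B and D, 0 of 9 members differed (edgeR quasi-likelihood F-test, Benjamini-Hochberg adjusted over all genes), and 0 of 9 had an unadjusted p under 0.05. DESeq2 and limma-voom also called 0 of 9. Of all 12952 genes tested, 1.89% were called. The lowest adjusted p among members was that of Tlr9 at 0.399, with means of 74.4 ± 11.1 in code A (SD, n = 3 libraries), 32 ± 18.3 in B (n = 5) and 62.2 ± 29.5 in D (n = 4). Means of Tlr2 were 1704 ± 1245 in A, 4537 ± 3720 in B and 4868 ± 1770 in D (SD, same n), and their ranges overlapped.

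To ask which genes moved together, every gene was regressed on the log2 level of 1 receptor across the 16 controls, and the slope is the log2 change for each doubling of that receptor. With Tlr2 as the receptor, 4 of the other 8 members rose and 0 fell. Of all 12517 genes tested, 14.3% rose and 7.55% fell (1793 and 945 genes, against 1255 and 94 under scaling to the total count). The median slope of the 8 was 0.46 and that of all genes was -0.03. Tlr6 rose by 0.76 ± 0.05 (SE, n = 16; edgeR adjusted p = 1.03e-08) and Myd88 by 0.66 ± 0.06 (edgeR adjusted p = 1.87e-07). Cd14 rose by 0.73 ± 0.10 (edgeR adjusted p = 5.75e-05) and Tlr4 by 0.57 ± 0.08 (edgeR adjusted p = 7.30e-05). These 4 kept their calls without any 1 of the 16 controls and without controls 2, 8 and 12.

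The remaining 4 members did not pass. Tlr5 had a slope of 0.36 ± 0.13 (edgeR adjusted p = 0.0564) and Tlr9 one of -0.40 ± 0.16 (edgeR adjusted p = 0.0761). DESeq2 placed both past the threshold, with adjusted p of 0.0331 and 0.0451. Without 1 control, the Tlr5 slope ran from 0.30 to 0.45 (edgeR adjusted p from 0.024 to 0.154) and passed without control 3, 7 or 9, and it was 0.26 (edgeR adjusted p = 0.273) without controls 2, 8 and 12. The Tlr9 slope passed without control 13 (-0.47) and was -0.18 (edgeR adjusted p = 0.485) without control 6 and -0.19 (edgeR adjusted p = 0.53) without controls 2 and 6. Tlr7 had a slope of 0.12 ± 0.08 (adjusted p = 0.292) and Tlr3 one of -0.10 ± 0.12 (adjusted p = 0.593). Outside the members, Tlr10 rose by 0.79 ± 0.11 (adjusted p = 2.86e-05) at its low counts, and Tlr8 had a slope of -0.17 ± 0.12 (adjusted p = 0.339).

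**Figure D2:**
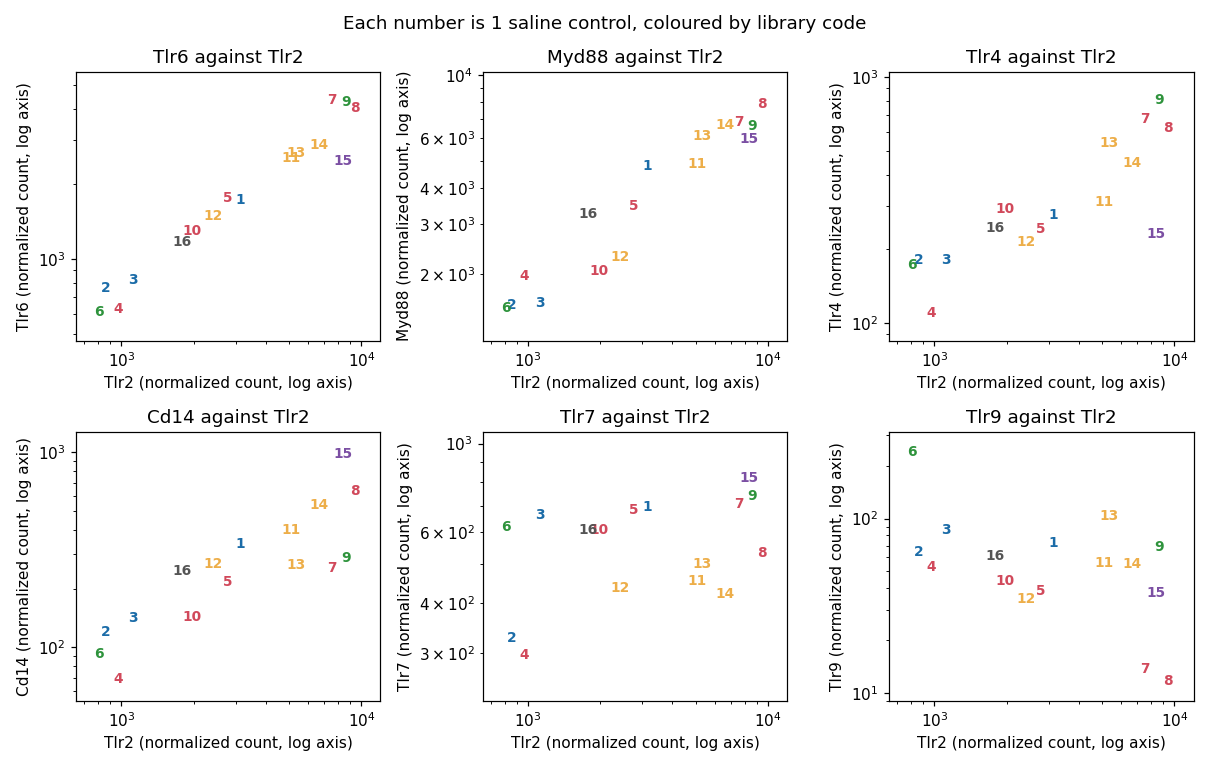
Levels of 6 genes against Tlr2 (normalized counts, both axes log), each number being 1 saline control coloured by its library code. Tlr6 and Myd88 lie along a narrow band, Tlr4 does so except for control 15 at 229, Cd14 is wider, and Tlr7 and Tlr9 show no such band.

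Compared pair by pair on the log2 scale, Tlr2 and Tlr6 had Pearson r = 0.978 and Spearman rho = 0.947 (n = 16), each with a two-sided permutation p of 1e-05, the smallest that 100000 permutations can give. With code means removed, over the 14 libraries of codes with at least 2, r was 0.991, and it was 0.971 once controls 2 and 6, which lay at the greatest distance from the median of Tlr2, had been left out. Tlr2 and Cd14 had r = 0.859 (permutation p = 1e-05) and rho = 0.859 (permutation p = 6e-05), with r = 0.91 within codes and 0.816 without controls 2 and 6. In all, 7 pairs were compared, and the slope fits above give these pairs' p-values adjusted over all genes.

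With Tlr4 as the receptor, 3 of the other 8 members rose and 0 fell, or 4 of 8 without control 15 or with library code as a term, where 10.7% of all 12760 genes tested rose and 6.89% fell (1363 and 879 genes, against 752 and 12 under scaling to the total count). Tlr6 rose by 1.05 ± 0.14 (SE, n = 16; edgeR adjusted p = 0.000293), Myd88 by 0.85 ± 0.16 (edgeR adjusted p = 0.00273) and Tlr2 by 1.19 ± 0.25 (edgeR adjusted p = 0.00444). Tlr4 and Tlr2 had r = 0.836 (permutation p = 6e-05) and rho = 0.826 (permutation p = 0.00012), with r = 0.945 within codes and 0.805 without controls 7 and 9. Tlr4 and Myd88 had r = 0.825 (permutation p = 0.00013) and rho = 0.874 (permutation p = 3e-05), with 0.89 within codes and 0.806 without controls 7 and 9.

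Cd14 and Tlr4, which act at the same step, had a lower r than Tlr4 had with Tlr2 or Myd88. That difference was not tested. Control 15 decided the call of the slope. The slope of Cd14 on Tlr4 was 0.57 ± 0.33 over 16 controls (edgeR adjusted p = 0.247) and 0.83 without control 15 (edgeR adjusted p = 0.0127). With library code as a term, which takes out the single libraries of codes E and F, it was 0.88 (edgeR adjusted p = 0.0126). The correlation was 0.554 (permutation p = 0.026) with rho = 0.615 (permutation p = 0.013), and r was 0.804 within codes and 0.676 without controls 7 and 9. It was 0.728 without control 15, and it lost its call without control 4, 6 or 8, with r from 0.426 to 0.512 and permutation p from 0.051 to 0.11. Whether the slope of Cd14 on Tlr4 differed from that on Tlr2 was not tested.

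**Figure D3:**
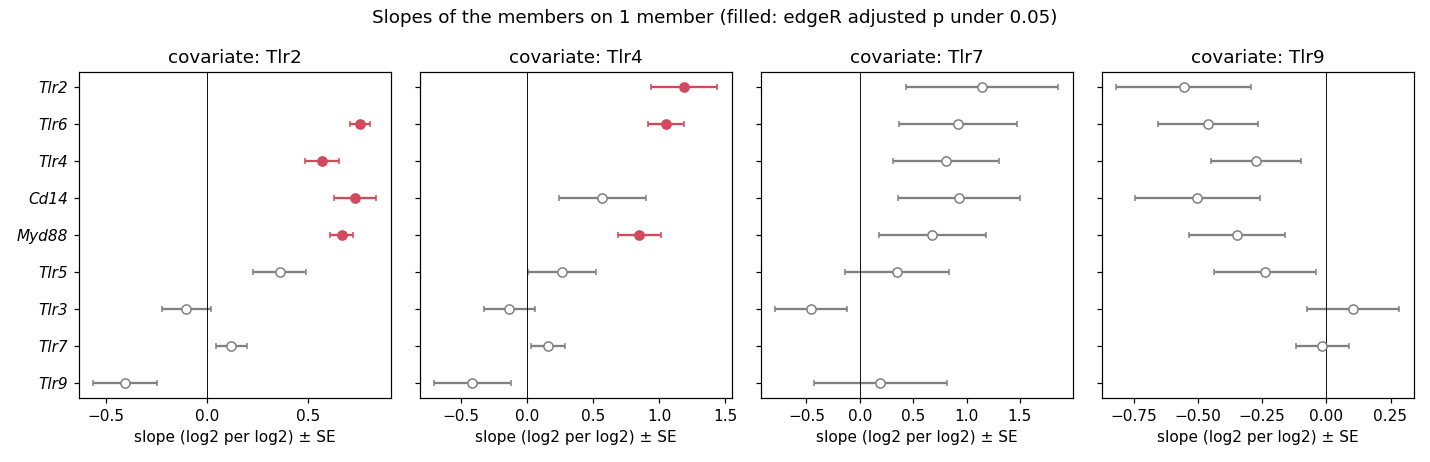
Slopes (log2 per log2, with SE bars) of each member on the level of Tlr2, Tlr4, Tlr7 or Tlr9 over 16 controls, filled red where the edgeR adjusted p was under 0.05. The filled points are 4 with Tlr2 (Tlr6, Tlr4, Cd14, Myd88), 3 with Tlr4 (Tlr2, Tlr6, Myd88), and 0 with Tlr7 or Tlr9.

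No member was called with either Tlr7 or Tlr9. With Tlr7, edgeR called 0 of 8 members and also 0 of 13021 genes in either direction (0% rising and 0% falling), although 1092 genes had an unadjusted p under 0.05. DESeq2 called 5 rising and 7 falling genes. Tlr8 had the slope with the lowest p among the receptors, 0.86 ± 0.31 (edgeR adjusted p = 0.372). Tlr7 and Tlr4 had r = 0.363 (permutation p = 0.17) and rho = 0.271 (permutation p = 0.31), with r = 0.552 (permutation p = 0.044) within codes and 0.181 without controls 7 and 9.

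With Tlr9, 0 of 8 members were called, and 1 of 8, Tlr6, had an unadjusted p under 0.05. Of all 13021 genes, 1.84% rose and 0.369% fell (240 and 48 genes, against 3999 and 27 under scaling to the total count). DESeq2 and limma-voom likewise called 0 members. The slope of Tlr2 on Tlr9 was -0.56 ± 0.26 (edgeR adjusted p = 0.216) and that of Tlr6 was -0.46 ± 0.19 (edgeR adjusted p = 0.172). Without controls 6 and 8, the extremes of Tlr9, 0 genes rose and 0 fell. Without control 6 alone 7 rose, without control 8 alone 10 rose, and 0 fell in both cases. Tlr7 and Tlr9 had r = -0.0533 (permutation p = 0.85) and rho = 0.0118 (permutation p = 0.97), with -0.212 within codes and -0.0115 without controls 2 and 4.

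Of 38 other genes of the pathway, 37 were listed (Ticam1 was not) and 36 passed the filter on low counts. With Tlr2, 11 of the 36 rose and 2 fell, against 14.3% and 7.55% of all genes, and their median slope was 0.07. Among the accessory proteins, Lbp, which carries lipopolysaccharide to Cd14, rose by 1.12 ± 0.11 (edgeR adjusted p = 5.91e-07) and Ly96, the partner of Tlr4, by 0.37 ± 0.08 (0.00334). Cd180, Ly86 and Cd36 had slopes of -0.20, -0.16 and -0.11 and did not pass. The chaperones that fold and carry the receptors, Cnpy3, Hsp90b1 and Unc93b1, had 0 of 3 called.

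Among 17 kinases and ligases, 4 rose and 1 fell with Tlr2. Irak4, the kinase that Myd88 recruits first, rose by 0.44 ± 0.04 (edgeR adjusted p = 9.90e-07) and Ripk1 by 0.30 ± 0.05 (9.43e-05), while the Irak1 slope was -0.09 and the Traf6 slope 0.07, neither past the threshold. Tab1, an activator of the kinase Map3k7, fell by 0.18 on the log2 scale per doubling (adjusted p = 0.0309). Of 3 adaptors tested, 2 rose, Tirap by 0.32 and Tollip by 0.16. Of 5 transcription factors, Rela rose by 0.26 and Irf3 fell by 0.19 (adjusted p = 0.0163), and the Irf7 slope was 0.0009. Of 3 inhibitors, Nfkbia rose by 0.57 and Tnfaip3 by 0.48, and Sigirr had a slope of -0.13.

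With Tlr4, 6 of the 36 pathway genes rose and 2 fell, against 10.7% and 6.89% of all genes. The smallest adjusted p among those that rose were Irak4 at 0.64 ± 0.09 (edgeR adjusted p = 0.000381), Peli1 at 0.29 ± 0.06 (0.00499) and Lbp at 1.38 ± 0.31 (0.00656), and those that fell were Irf3 at -0.32 and Sigirr at -0.27. With Tlr9, 2 rose, Cd180 by 0.48 and Irf5 by 0.30, against 1.84% of all genes, and with Tlr7, 0 of 36 moved. Without controls 2, 8 and 12, 8 pathway genes rose with Tlr2, 2 with Tlr4 and 0 with Tlr9, and 0 fell. Under scaling to the total count, 8 rose with Tlr2, 2 with Tlr4 and 9 with Tlr9, and 0 fell with any of them. With library code as a term, 0 of 36 rose with Tlr9.

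**Figure D4:**
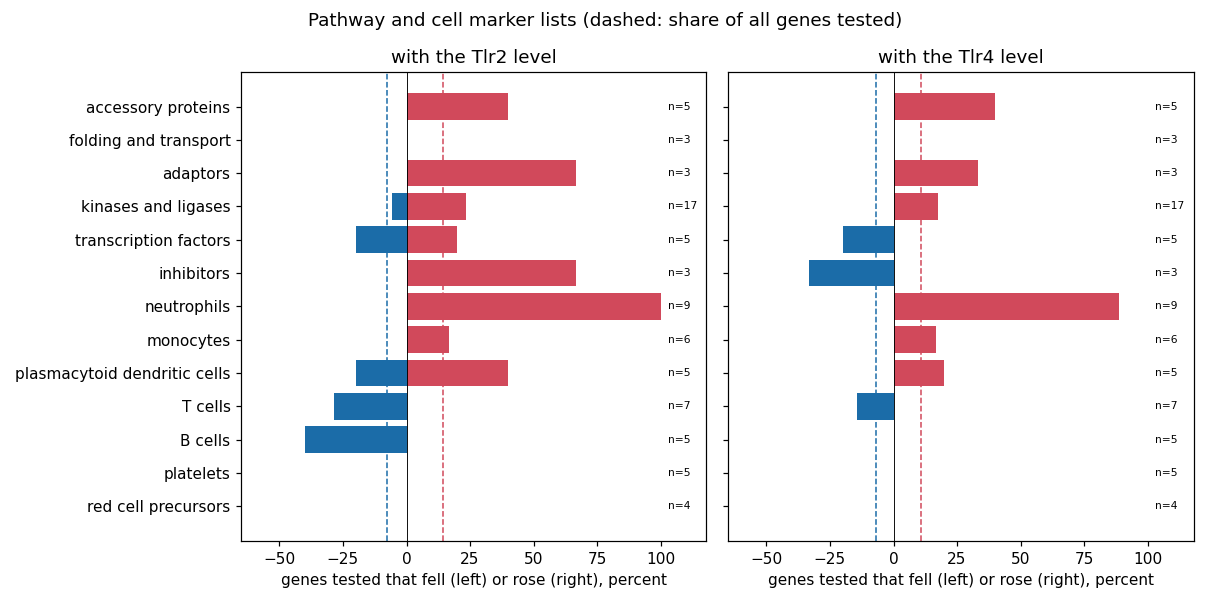
Percent of the tested genes of each list that rose (red, right) or fell (blue, left) with the level of Tlr2 or Tlr4, with n tested beside each bar and the share of all genes as dashed lines (14.3% and 7.55% for Tlr2, 10.7% and 6.89% for Tlr4). The neutrophil bar reaches 9 of 9 with Tlr2 and 8 of 9 with Tlr4, and the bars of the other lists are shorter.

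Neutrophil markers moved with the same receptors. Of 11 in the list, 9 were tested with Tlr2 and 9 rose, with a median slope of 1.28. Among them were Cxcr2 at 0.90, Mmp8 at 1.38 and S100a8 at 1.28. Mpo and Ltf did not pass the filter on low counts. With no filter, and with library code as a term, 11 were tested and 9 rose. The count was also 9 without controls 2, 8 and 12 and without any 1 control. With Tlr4, 8 of 9 rose, but only 3 of 9 without controls 2, 8 and 12. The summed level of the 11 was lowest at 35688 in control 6, where Tlr2 was lowest, and had a median of 216070. It was highest at 1178800 in control 8, where Tlr2 was highest. S100a9 and S100a8 weighed most in this sum, with means of 180900 and 100600, the highest among the 9 tested. None of the 11 was at 0 in all libraries. The part of neutrophil number in the levels of Tlr2, Tlr6, Tlr4, Cd14 and Myd88 was not tested.

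Of 6 monocyte markers tested, 1 rose with Tlr2 and 1 with Tlr4, against 14.3% and 10.7% of all genes. Ccr1, which the study lists for monocytes and neutrophils also carry, rose with Tlr2 (slope 1.01) and with Tlr4 (1.37). The other slopes were not called and went both ways. With Tlr2 and Tlr4, Csf1r, the receptor that defines the lineage, had slopes of -0.12 and -0.16, and Cx3cr1 had -0.26 and -0.29. Those of Cd163 were 0.54 and 0.71, those of Cd68 0.12 and 0.09, and those of Itgax 0.09 and 0.06. With Tlr9, 1 of the 6 rose, Cx3cr1 by 0.59 (edgeR adjusted p = 0.0405), and with Tlr7, 0 did. Lymphocyte markers went the other way with Tlr2, where every tested slope of both lists was negative but only part were called. With Tlr2, 2 of 5 B cell markers fell (Cd22 by 0.24 and Cr2 by 0.28) and 2 of 7 T cell markers fell (Cd3e by 0.22 and Cd247 by 0.16). Of all genes, 7.55% fell. Without controls 2, 8 and 12, 1 B and 0 T cell markers fell, and under scaling to the total count 0 of either did. With library code as a term 3 and 0 fell, with DESeq2 4 and 4, with DESeq2 size factors 4 and 2, and without controls 2 and 6, 0 and 5. The summed B cell level was 13586 in control 6, which had the most Tlr9, and 4269.7 in control 8, which had the least. Of the same 5 B cell markers, 2 rose with Tlr9, namely Cd22 and Blk, with slopes of 0.43 and 0.45, and 0 of 5 did without controls 6 and 8, 0 of 5 with library code as a term and 5 of 5 under scaling to the total count. Of 5 plasmacytoid dendritic cell markers, 2 rose with Tlr2 (Il3ra by 0.46 and Siglech by 0.50) and 1 fell (Cobll1 by 0.22). Siglech was low, at 2.06 to 22 normalized counts. The counts were 1 and 0 without controls 2, 8 and 12 and under scaling to the total count. With Tlr9 1 rose, Cobll1 by 0.37. That count was 0 without controls 2, 8 and 12 and with library code as a term, and 3 under scaling to the total count. The Tlr9 slopes of Siglech, Il3ra, Pacsin1 and Tcf4 were -0.52, -0.35, 0.26 and 0.09, none of them called. Platelet and red cell precursor lists had 0 called with either Tlr2 or Tlr4.

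The genes whose levels were most like each receptor were found by Pearson r over the 16 controls among 8373 named genes with a mean of at least 100 (8374 for Tlr9). For Tlr2 they were Pglyrp1 (r = 0.984), a peptidoglycan-binding protein of neutrophil granules, Prok2 (0.983) and S100a8 (0.983), a calcium-binding protein abundant in neutrophils. For Tlr4 they were Cisd2 (r = 0.948), Eif2ak2 (0.938), the kinase PKR that double-stranded RNA activates, and Tiparp (0.933). For Tlr7 they were Tnfsf13 (r = 0.842), RGD1559482 (0.828) and Ap1s2 (0.801), and for Tlr9 they were Cd22 (r = 0.931), a B cell co-receptor, Lrrk1 (0.930) and Ciita (0.924), the activator of MHC class II genes. These values describe the 16 libraries and carry no test.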

How the data were processed

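Per the labels and the study's methods, the authors depleted alpha and beta globin mRNA from whole blood RNA, made stranded polyadenylated libraries, sequenced 51 bases paired end, clipped reads with fastq-mcf, aligned them with Bowtie 0.12.9 to rat transcripts of Ensembl release 70 on build rn5 and deposited RSEM 1.2.0 estimated counts per gene, which are not normalized and divide a read that fits several transcripts. Outlying values, which the study exchanged for trimmed means, were left as deposited.

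The estimated counts were rounded to whole numbers. The gene lists differed between files, so the 18031 genes listed in all 16 were used. All pairs of libraries differed by more than sampling noise (lowest chi-square per degree of freedom 48.04 over 120 pairs). Each library is 1 rat, and p-values measure the spread between these rats.

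Normalized counts are rounded counts divided by DESeq2 1.42.0 size factors, with a pseudocount of 1 for log2 levels. Slopes and codes were fitted with edgeR 4.0.16 (R 4.3.3) over all genes passing filterByExpr, with TMM scaling, the quasi-likelihood F-test and Benjamini-Hochberg adjustment. An adjusted p under 0.05 was a call. SE is the absolute slope divided by the square root of F. The code was tested on simulated data. Correlations used 100000 two-sided permutations. Alternatives were DESeq2 size factors, total count scaling, no filter, a pseudocount of 10, DESeq2, limma-voom (limma 3.58.1), code as a term, and fits without controls. Those leaving out each control in turn for slopes and correlations, and the code test without controls 2, 8 and 12, were chosen after seeing the data. Some marker genes were taken out of the lists and are not reported here. Members, lists and tests were chosen with earlier results of these data known. Named were all members, other Tlr symbols, list genes with up to 3 lowest adjusted p in each direction, and further list genes chosen after their values were seen, and the 3 genes most like Tlr2, Tlr4, Tlr7 and Tlr9. Python 3.11.15 was used with pandas 2.3.3, numpy 2.4.6 and scipy 1.17.1, and matplotlib 3.10.9 for plots.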

Additional observations from a re-analysis of the deposited data

How the results depend on the processing

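The calls of Tlr6, Myd88, Cd14 and Tlr4 with Tlr2, and of Tlr6, Myd88 and Tlr2 with Tlr4, and the count of 0 members called between codes, held in every alternative run. Only 1.89% of all genes were called between codes in the main fit, so a count of 0 among 9 members says little about them. Leaving out 1 control at a time, the members called ranged from 4 to 5 with Tlr2, from 3 to 4 with Tlr4, and were 0 with Tlr7, with Tlr9 and between codes. The correlation of Tlr4 and Cd14 was 0.47 (permutation p = 0.1) without controls 2, 8 and 12 and ranged from 0.426 to 0.728 without 1 control. That of Tlr4 and Tlr7 was 0.55 (permutation p = 0.044) within codes, and that of Tlr7 and Tlr9 changed sign to 0.39 (permutation p = 0.13) under total count scaling and ranged from -0.144 to 0.0686 without 1 control, the positive value being without control 7. Slopes that changed sign were those of Tlr3 on Tlr2 (0.0698 without controls 2, 8 and 12, and from -0.175 to 0.00627 without 1 control, the positive value being without control 2), Tlr3 on Tlr4 (0.0818 without those 3, and 0.0153 under total count scaling) and Tlr5 on Tlr4 (-0.0285 without those 3), none of them called. The cause of these changes was not tested.

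Counts over all genes were less steady. Total count scaling moved the median slope of all genes to 0.29 with Tlr7 and 0.19 with Tlr9. Under it 7 genes were called between codes, 94 fell with Tlr2, 752 rose and 12 fell with Tlr4, 20 rose and 98 fell with Tlr7, and 3999 rose and 27 fell with Tlr9. With no filter 114 were called between codes, 9 rose and 397 fell with Tlr7, and 149 rose and 31 fell with Tlr9. DESeq2 called 789 between codes, 1426 falling with Tlr2, 1373 falling with Tlr4, 5 rising and 7 falling with Tlr7, and 635 rising and 386 falling with Tlr9. With Tlr9, 74 fell under DESeq2 size factors and 95 in limma-voom. With code as a term 4 rose with Tlr7, and 0 rose and 0 fell with Tlr9. Without controls 2, 8 and 12, 2 were called between codes, 297 fell with Tlr2, 579 rose and 188 fell with Tlr4, and 24 rose and 5 fell with Tlr9. Without the 2 controls farthest from the median 228 fell with Tlr4, and 0 rose and 0 fell with Tlr9. Without 1 control the counts ranged from 1 to 628 between codes, from 491 to 1005 falling with Tlr2, from 875 to 1535 rising and 314 to 1121 falling with Tlr4, from 0 to 3 rising and 0 to 242 falling with Tlr7, and from 7 to 537 rising and 0 to 161 falling with Tlr9. No paired analysis was possible because the labels give a single group. Tlr3 and Tlr9 had as few as 9 counts in a library, which limits both.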
